A study of Mus musculus with 39 samples.

Results

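Tumor RNA was compared between TH-MYCN mice that received DFMO together with a diet free of proline and arginine and TH-MYCN mice that received the same diet alone. The mice were chosen by the labels of the deposited count columns, 5 with the combination and 5 with the diet alone, which gave 10 RNA libraries of 39 libraries in the whole series. Both groups carry the MYCN transgene and ate the diet lacking both amino acids, so the labelled difference is DFMO. Summed Y-linked RNA was 2.69 CPM in P5702, a diet mouse, and above 20 CPM in RNA of the other 9 mice. In ribosome footprints of the same tumors it was 8.7 CPM in P5702 and 9.89 CPM in PD5732, a combination mouse. The remaining footprint libraries had 41.5 to 91.5 CPM. So the diet group may hold 1 female, and the sex of PD5732 differs by readout. The labels name the tissue as tumor, the cell type as neuroblast and the genotype as MYCN amplified, each RNA library carries its own mouse number, and the labels give no age, sex, strain background, dose or time. Mice are written PD for the combination and P for the diet alone, followed by their number. Of 20333 transcripts, 1 per gene, 13461 had enough reads in these libraries to be tested.

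TH-MYCN mice carry human MYCN behind a tyrosine hydroxylase promoter, which is active in the sympathetic lineage, and they develop tumors of immature sympathetic neuroblasts. DFMO (difluoromethylornithine) irreversibly blocks ornithine decarboxylase, the enzyme that turns ornithine into putrescine, the first polyamine. Arginine yields ornithine through arginase, and proline yields it through ornithine aminotransferase. Polyamines are needed for growth, spermidine also supplies the hypusine residue of the translation factor eIF5A, and polyamine levels feed back on the translation of Amd1, antizyme and antizyme inhibitor messages.

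With DFMO added to the diet, 9 of 18 tested neuropeptide and granin genes and 13 of 27 vesicle release genes rose. So did 13 of 22 genes of the immediate early list, which also holds Etv, Dusp and Spry genes. Of ribosome biogenesis factors 25 of 56 fell, of mitotic genes 18 of 39 and of DNA replication genes 18 of 42. A change is a log2 fold change, combination over diet, ± its standard error from edgeR, and a gene is called at a Benjamini-Hochberg adjusted p under 0.05 over all 13461 genes. Levels are in CPM (reads of a gene scaled to a common library size) of the TMM-scaled library. By this rule 2607 genes (19.4%) were called. Of these, 1424 genes (10.6% of those tested) rose and 1183 (8.79%) fell, and the median change over all genes tested was -0.00. Changes were larger upwards: 1154 of the genes that rose and 747 of those that fell changed more than 2-fold, and 217 rose and 22 fell more than 8-fold. All 5 combination libraries lay above all 5 diet libraries for 1464 genes (10.9%) and below them for 1004 (7.46%), and 1141 and 806 of these were called. On deposited RPKM values with limma, which are not TMM-scaled, 976 genes rose and 269 fell (78.4% of calls upwards, against 54.6% in edgeR). On that scale the median over all genes was 0.37.

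Of the 10 libraries, P5828 and PD5732 stood apart, and PD5736 to a lesser degree. The combination libraries had 29.3 to 38.6 M counts and 16001 to 16189 transcripts, each with more transcripts than any diet library (exact permutation test, two-sided, n = 5 each, p = 0.00794, the smallest this design allows). P5828, a diet library, held 17.4 M counts with 12969 transcripts detected and 43.1% of counts in ribosomal protein genes, where the other diet libraries had 27.8 to 37.4 M, 14977 to 15645 transcripts and 22.3 to 30.4%. RNA of PD5732 did not match the footprints of its own tumor. Over 7016 genes, its departures from the mean correlated at r = -0.057 with the footprints of PD5732, at 0.755 with those of PD5805 and at 0.725 with those of PD5825 (across genes, which are not replicates). It also lay closer to the equal mean of RNA PD5805 and PD5825 (spread 0.109, the scaled median absolute deviation of log2 differences over 4913 genes) than to either library, the nearer being PD5805 (0.243). PD5736 lay likewise near the mean of PD5746 and PD5825 (0.137), with r = 0.549 to its own footprints and 0.584 to those of PD5746. P5828 had r = 0.181 to its own footprints and 0.193 to those of P5785. Y-linked genes summed to 34 CPM in RNA of PD5732 and 9.89 CPM in its footprints. Whether these libraries hold RNA of other tumors was not tested, and if they do, the 5 combination libraries are fewer than 5 independent tumors.

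**Figure D1:**
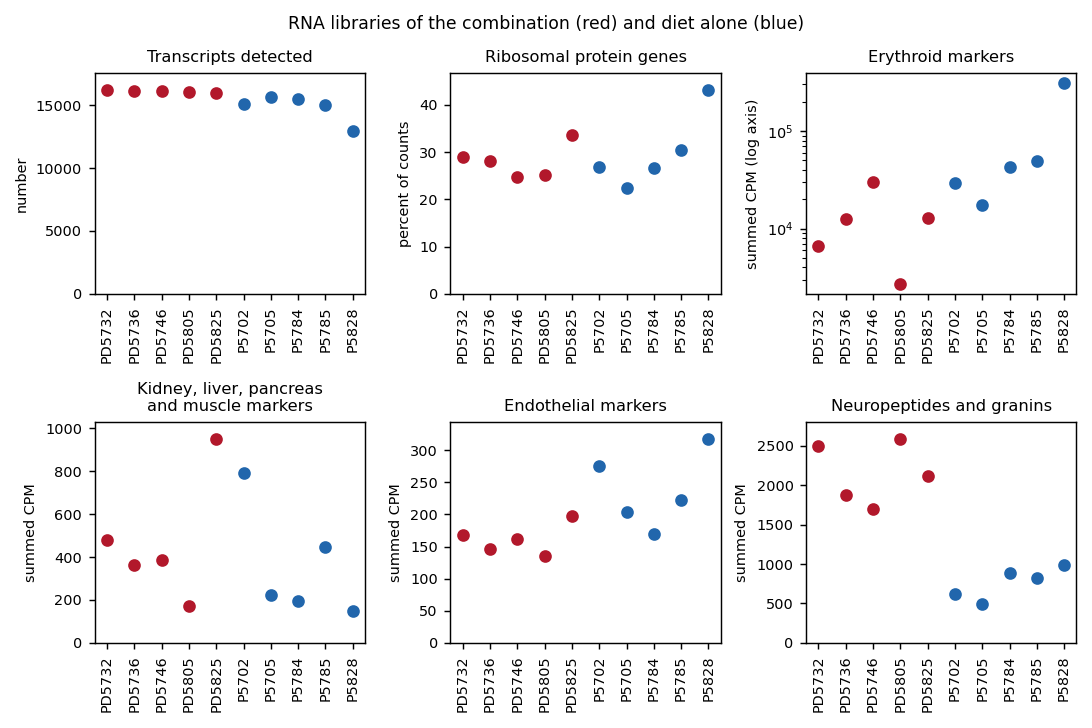
Measures of the 10 RNA libraries, each point 1 tumor: transcripts detected, the percent of counts in ribosomal protein genes, and summed CPM of marker and gene lists (log axis for erythroid markers). P5828 is lowest in transcripts detected (12969) and highest in ribosomal protein genes (43.1%) and erythroid markers, and all combination libraries lie above all diet libraries for neuropeptides and granins.

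Without P5828, 4260 of 13754 genes tested (31%) were called, 2243 up and 2017 down. They included 2597 of the 2607 genes, and none of the genes turned its direction. Without PD5732, 1267 of 13604 genes tested were called, 804 up and 463 down, and 1255 of them were among the 2607. Without PD5805 the count was 1252, and without PD5736 it was 1652. With P5828 and PD5732 both left out 3098 were called (22.9%), and with PD5736 left out as well 2075, of which 1758 were among the 2607. Of 123 named genes that were called, 68 kept their call under every alternative that gave a value. The call of 33 was lost when at least 1 mouse was left out.

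Neuropeptide genes were among the steepest rises. Tac1, which encodes substance P, had 120, 53.6, 13.8, 150 and 85.3 CPM in PD5732, PD5736, PD5746, PD5805 and PD5825, against 0, 0.142, 1.23, 0.269 and 0 CPM in P5702, P5705, P5784, P5785 and P5828. Its groups do not overlap, which was a condition for the choice of the largest changes. Among combination tumors PD5746 was the lowest. The change was 7.77 ± 0.97 (edgeR adjusted p = 0.000552). Vip, vasoactive intestinal peptide, had 12.1, 8.73, 12.8, 17.3 and 1.76 CPM in the combination tumors (in the same order of mice), against 0.186, 0.0945, 0, 0.077 and 0 CPM in the diet tumors, a change of 6.95 ± 0.77 (edgeR adjusted p = 0.000325). Scg2, secretogranin 2 of dense-core vesicles, had 85.4, 51.2, 34.4, 120 and 45.9 CPM in the combination tumors, against 2.23, 5.29, 8.66, 4.73 and 1.02 CPM in the diet tumors. Its groups did not overlap, and it rose by 3.90 ± 0.53 (edgeR adjusted p = 0.000726). Grp, gastrin-releasing peptide, lay at 2.64 to 41.4 CPM in the combination tumors, against 0 to 1.02 CPM in the diet tumors, and rose by 5.53 ± 0.81.

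Of 18 tested members of the list of neuropeptides and granins, 9 rose and 0 fell, with a median change of 1.13 (all genes: 10.6% rose, 8.79% fell, median -0.00). Beside Tac1, Vip and Scg2 these were Vgf, a secreted nerve growth factor-inducible peptide precursor (2.74 ± 0.58), the cocaine- and amphetamine-regulated transcript Cartpt (2.21 ± 0.44), the amidating enzyme Pam (1.85 ± 0.39), the granin Scg3 (1.42 ± 0.29), the processing enzyme Cpe (1.28 ± 0.24) and the prohormone convertase Pcsk2 (0.90 ± 0.28). The chromogranins Chga and Chgb were not called (0.29 ± 0.26 and -0.49 ± 0.23), and neither was Npy, neuropeptide Y (-0.01 ± 0.51). The summed CPM of the list was 1701 to 2582 in the combination tumors, against 495 to 991 in the diet tumors. Without P5828, 13 members rose and 0 fell, where 16.3% of all genes rose. Without PD5732, PD5736 and P5828 the counts were 9 and 0, where 1160 of 13689 genes rose.

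The promoters of 4 genes that rose and 1 that fell are printed so that their letters can be read beside the levels. They run 5′ to 3′ from 250 bases before to 50 bases after the RefSeq gene start on GRCm38.p6, and capitals mark the core of the cAMP response element, TGACGT, in Vip, Scg2 and Fos, and the E-box CACGTG in Tac1, which rose, and in Pes1, a ribosome biogenesis factor described further on, which fell. The windows of Nr4a1, which rose, and of Ddx21 and Odc1, which fell, were also searched, held neither motif and are not printed. The RefSeq start of Nr4a1 lies 12577 bases from that of the counted transcript, so its window does not describe that transcript. For Tac1 and Scg2 the starts lie 182 and 94 bases apart. The motifs were chosen after these windows had been read, and the genes shown are counted in the shares given after them.
Vip, chr10:5638968-5639267, plus strand: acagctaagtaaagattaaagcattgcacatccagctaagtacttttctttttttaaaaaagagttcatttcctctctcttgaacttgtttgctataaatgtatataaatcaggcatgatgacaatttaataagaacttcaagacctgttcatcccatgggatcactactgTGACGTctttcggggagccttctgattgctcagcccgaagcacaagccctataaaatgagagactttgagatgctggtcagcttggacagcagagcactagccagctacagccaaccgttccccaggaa
Tac1, chr6:7554811-7555110, plus strand: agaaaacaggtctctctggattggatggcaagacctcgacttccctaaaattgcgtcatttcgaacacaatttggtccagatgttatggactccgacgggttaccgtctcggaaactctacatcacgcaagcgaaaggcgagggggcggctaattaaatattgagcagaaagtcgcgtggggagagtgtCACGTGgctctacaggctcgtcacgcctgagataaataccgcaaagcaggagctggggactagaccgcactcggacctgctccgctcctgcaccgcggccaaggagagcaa
Scg2, chr1:79439977-79440276, minus strand: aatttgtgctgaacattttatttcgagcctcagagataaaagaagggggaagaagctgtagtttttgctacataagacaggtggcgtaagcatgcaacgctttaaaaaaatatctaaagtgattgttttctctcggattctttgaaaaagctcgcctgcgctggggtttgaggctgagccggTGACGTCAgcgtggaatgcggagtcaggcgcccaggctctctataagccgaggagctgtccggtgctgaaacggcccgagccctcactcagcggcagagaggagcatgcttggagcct
Fos, chr12:85473640-85473939, plus strand: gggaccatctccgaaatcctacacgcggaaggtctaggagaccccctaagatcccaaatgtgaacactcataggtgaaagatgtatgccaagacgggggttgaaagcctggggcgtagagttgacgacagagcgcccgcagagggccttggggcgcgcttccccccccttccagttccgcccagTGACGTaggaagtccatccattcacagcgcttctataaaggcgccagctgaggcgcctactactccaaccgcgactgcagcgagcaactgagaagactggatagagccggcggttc
Pes1, chr11:3963725-3964024, plus strand: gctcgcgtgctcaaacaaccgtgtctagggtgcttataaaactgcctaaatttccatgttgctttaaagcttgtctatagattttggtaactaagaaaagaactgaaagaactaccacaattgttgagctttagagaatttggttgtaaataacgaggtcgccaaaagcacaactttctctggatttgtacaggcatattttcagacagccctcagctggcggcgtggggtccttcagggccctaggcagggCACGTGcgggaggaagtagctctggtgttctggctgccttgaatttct

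TGACGT stands 79 bases before the start in Vip, 68 in Scg2 and 66 in Fos. Scg2 holds the full palindrome, so its 2 strands both match. Searched on both strands, the core was found in 5 of 15 promoters of the neuropeptide list (33.3%) and 4 of 17 of the immediate early list (23.5%). It was found in 2 of 19 of the synapse list (10.5%), which also held rises, and in 8 of 49 of the ribosome biogenesis list (16.3%), which held falls, against 9.26% of all 15830 promoters matched to a counted transcript and 11.8% of the 10552 among genes tested. Of all called genes with a promoter, 10.7% of those that rose and 10.6% of those that fell held it. The E-box was found in 9 of 49 promoters of the ribosome biogenesis list (18.4%) and 1 of 15 of the neuropeptide list (6.67%), against 10.0% of the genes tested. Of all called genes with a promoter, 7.71% of those that rose and 11.5% of those that fell held the E-box. A motif of AP-1 was searched as well. It was found in 6.28% of those that rose and 3.27% of those that fell, against 4.86% of the genes tested, and in 0 of 17 promoters of the immediate early list. These are matches of letters and say nothing of binding.

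The other large rises were of mixed function. Ostn, which encodes the secreted peptide osteocrin, had 70, 21.8, 0.466, 102 and 30.6 CPM in the combination tumors and no count in any of the 5 diet tumors. With 3 counts over the diet group as the floor, it was at least 2196-fold higher (edgeR adjusted p = 0.00382, or 0.133 without PD5732, PD5736 and P5828). Htr2b, a serotonin receptor, had 21.9, 32.3, 62.2, 28 and 20 CPM in the combination tumors, against 0.589, 0.213, 0.46, 0.423 and 1.31 CPM in the diet tumors. It rose (edgeR adjusted p = 0.000145), and varied least among the combination tumors of the 12 largest rises. Agt, angiotensinogen, rose by 6.23 ± 0.86, the Rac activator Tiam2 by 6.29 ± 0.66, the slow muscle troponin Tnni1 by 5.51 ± 0.58, the calcium sensor secretagogin, Scgn, by 5.42 ± 0.84, and the membrane lectin Chodl by 5.17 ± 0.45. Golga7b and Efcab6 rose by 5.15 ± 0.54 and 5.02 ± 0.69. The lowest combination tumor was PD5825 for Vip, Htr2b and Scgn, and PD5746 for Ostn, Tac1, Tiam2, Agt, Grp, Tnni1, Chodl, Golga7b and Efcab6.

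**Figure D2:**
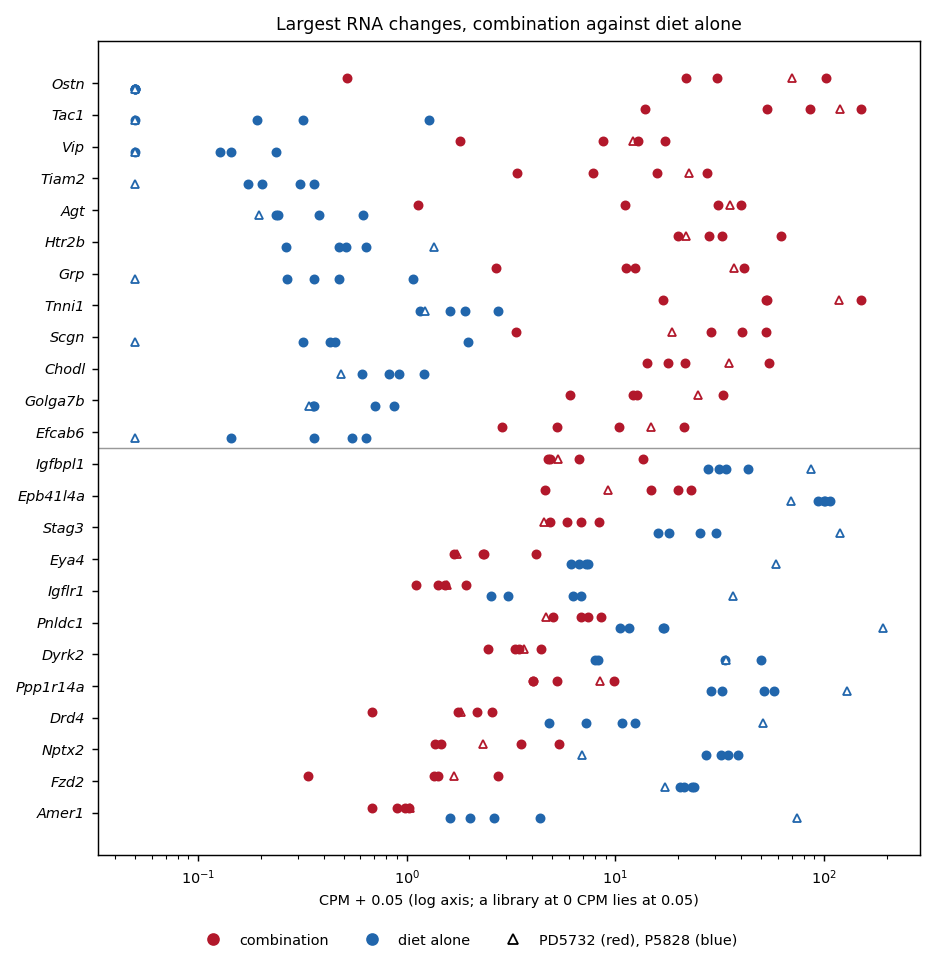
CPM + 0.05 on a log axis for the 12 largest rises (top) and 12 largest falls, each point 1 tumor, combination in red above diet alone in blue. Triangles mark PD5732 and P5828; in Amer1, Pnldc1, Eya4 and Igflr1 the P5828 triangle lies far to the right of the other diet tumors.

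Genes of synaptic vesicles rose beside the peptides. Of 27 tested members of the list, 13 rose and 0 fell, with a median of 1.03 (all genes: 10.6% rose, 8.79% fell). Syt5, a calcium sensor of dense-core vesicles, had 104, 67, 46.5, 113 and 83.1 CPM in the combination tumors, against 9.76, 6.83, 7.87, 11 and 14.7 CPM in the diet tumors, and rose by 3.06 ± 0.30 (edgeR adjusted p = 0.000245). Syt4 rose by 2.25 ± 0.30, synapsin Syn2 by 2.00 ± 0.29, the SNARE protein Snap25 by 1.89 ± 0.43, the vesicle GTPase Rab3a by 1.88 ± 0.32 and synaptophysin, Syp, by 1.42 ± 0.31. Without P5828 the counts were 16 and 0, where 16.3% of all genes rose. Without PD5732 they were 10 and 0, where 804 of 13604 genes rose. On RPKM with limma they were 5 and 0, where 976 of 13461 genes rose.

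Th encodes tyrosine hydroxylase, which makes the catecholamine precursor DOPA and whose promoter drives the transgene. It had 1182, 1243, 811, 946 and 1432 CPM in the combination tumors, against 306, 233, 465, 388 and 215 CPM in the diet tumors. The groups did not overlap, and Th rose by 1.81 ± 0.28 (edgeR adjusted p = 0.00156). Of 16 tested genes of catecholamine synthesis and storage, 4 rose and 0 fell, with a median of 0.28 (all genes: 10.6% rose, 8.79% fell). The dihydropteridine reductase Qdpr rose by 1.38 ± 0.26. The noradrenaline transporter Slc6a2 (1.94 ± 0.60) and the cofactor enzyme Pts (0.96 ± 0.30) rose too, but each lost its call when any of several single mice was left out, PD5732 among them (adjusted p = 0.0947 and 0.102 in edgeR). The next enzymes of the pathway were not called: Ddc changed by -0.85 ± 0.30 and Dbh by 1.31 ± 0.46 (edgeR adjusted p = 0.0646 and 0.061).

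Among 31 tested genes of the neuronal cytoskeleton and axon growth, 7 rose and 2 fell, with a median of 0.09 (all genes: 10.6% rose, 8.79% fell). All 7 that rose had combination tumors above all diet tumors, as did 1141 of the 1424 genes that rose among all genes tested. The peripheral neuron intermediate filament Prph had 35.2, 23.5, 30.7, 40.5 and 21.7 CPM in the combination tumors, against 1.46, 2.01, 3.22, 2.39 and 4.37 CPM in the diet tumors, and rose by 3.54 ± 0.33 (edgeR adjusted p = 0.000245). Dpysl4, of the collapsin response family, rose by 2.07 ± 0.25, tau, Mapt, by 1.73 ± 0.32 and the adhesion molecule L1cam by 1.62 ± 0.24. Of 13 tested neurotrophic receptors 5 rose and 0 fell. Gfra2, the neurturin co-receptor, rose by 2.47 ± 0.33, with 11.5 to 24.9 CPM in the combination tumors and 1.46 to 3.76 CPM in the diet tumors. Sorcs1, Sorcs2 and Erbb3 rose by 2.36 ± 0.44, 2.31 ± 0.49 and 2.15 ± 0.47.

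Of 29 tested ion channel genes 5 rose and 2 fell (all genes: 10.6% and 8.79%). The calcium-activated potassium channel Kcnma1 rose by 1.92 ± 0.29 and the glutamate receptor subunit Gria2 by 1.86 ± 0.37. The calcium channel subunit Cacna2d1 fell by 2.35 on the log2 scale (SE 0.52, edgeR adjusted p = 0.0103), and without P5828, which had 138 CPM of it, by 1.46. Of 20 tested neuronal RNA-binding proteins 3 rose and 2 fell, near the shares of all genes (10.6% and 8.79%). Celf6 rose by 2.70 ± 0.63 and the neuronal nuclear marker Rbfox3 by 1.75 ± 0.41, and Nova2 fell by 1.58 (SE 0.30). The Hu protein Elavl4 rose by 2.31 ± 0.60, a call that was lost without PD5732 (edgeR adjusted p = 0.052), PD5805 (0.0595) or P5785 (0.0553).

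The list of immediate early genes, which neurons and other cells switch on within minutes of calcium, cAMP or growth factor signals, moved mostly upwards. It also holds the ETS factors Etv1, Etv4 and Etv5 and the growth factor feedback genes Dusp4, Dusp6, Spry1 and Spry2. These are not immediate early genes. Of 22 tested members of the list, 13 rose and 1 fell, with a median of 1.31 (all genes: 10.6% rose, 8.79% fell). Fos, a subunit of AP-1, had 63.1, 37.6, 25.4, 62.6 and 45.7 CPM in the combination tumors, against 3.38, 8.27, 4.75, 3.12 and 2.77 CPM in the diet tumors. It rose by 3.37 ± 0.37 (edgeR adjusted p = 0.000322), with no overlap of the groups. Egr1, a zinc finger factor, had 36, 34.6, 23.7, 36.4 and 29.7 CPM in the combination tumors, against 5.46, 13.2, 4.11, 3.77 and 0.874 CPM in the diet tumors, and rose by 2.51 ± 0.49 (edgeR adjusted p = 0.00529). The nuclear receptor Nr4a1 rose by 2.54 ± 0.40, with 52.9 to 96.1 CPM in the combination tumors and 7.31 to 31.2 CPM in the diet tumors, P5705 being the highest of these.

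The ETS factors Etv5 and Etv4 rose by 3.20 ± 0.57 and 2.64 ± 0.51, the ERK phosphatase Dusp6 by 1.68 ± 0.34 and the signalling inhibitor Spry2 by 1.29 ± 0.31. Their relatives Etv1 (1.78 ± 0.61), Dusp4 (0.78 ± 0.60) and Spry1 (0.37 ± 0.56) were not called, and neither were Egr2 (0.56 ± 0.62), Ier3 (0.37 ± 0.44) and Ier2 (0.01 ± 0.28). The neuronal activity genes Arc and Npas4 rose by 2.79 ± 0.62 and 1.86 ± 0.53, and Fosb by 2.90 ± 0.58. Jun and Junb were not called (0.23 ± 0.19 and 0.45 ± 0.32), and Jund was the member that fell, by 1.18 on the log2 scale (SE 0.29). Without P5828, 15 rose and 1 fell, where 16.3% of all genes rose. Without PD5732 the counts were 9 and 1, where 804 of 13604 genes rose. On RPKM with limma they were 9 and 0, where 976 of 13461 genes rose.

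**Figure D3:**
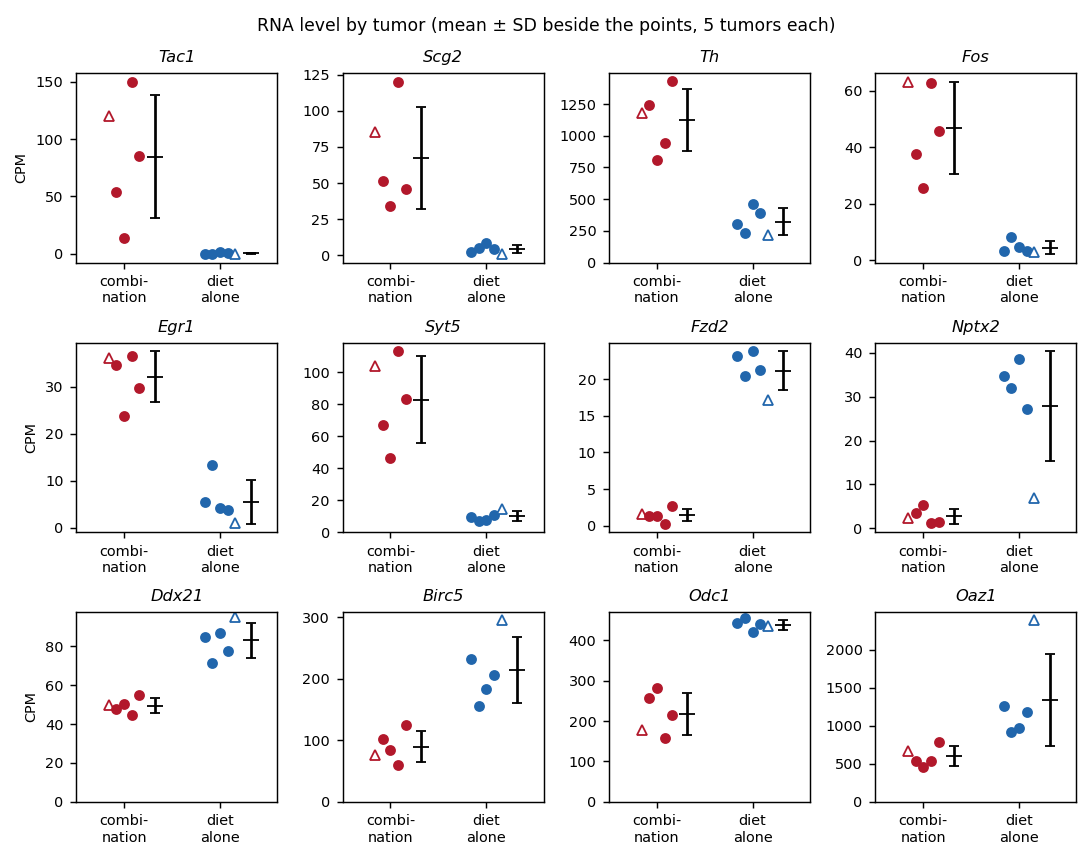
CPM of 12 genes in each tumor, combination left of diet alone, with the mean ± SD of 5 tumors beside the points and triangles for PD5732 and P5828. After TMM scaling, which raises the values of P5828, the 5 combination tumors lie on 1 side of the 5 diet tumors in each gene. For Tac1, Fzd2 and Nptx2 this was a condition of their choice. Odc1 is near 440 scaled CPM in every diet tumor and below 290 scaled CPM in every combination tumor.

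Among the falls, Fzd2, a Wnt receptor, was the largest that did not rest on P5828. It had 1.64, 1.31, 1.36, 0.287 and 2.68 CPM in the combination tumors, against 23.2, 20.4, 23.8, 21.3 and 17.2 CPM in the diet tumors, and fell by 3.87 on the log2 scale (SE 0.44, edgeR adjusted p = 0.000346). Nptx2, a secreted pentraxin that clusters glutamate receptors, had 2.27, 3.48, 5.33, 1.32 and 1.41 CPM in the combination tumors, against 34.7, 32, 38.6, 27.3 and 6.85 CPM in the diet tumors, and fell by 3.33 (SE 0.51). Epb41l4a, a membrane-cytoskeleton linker, had 9.17, 19.9, 22.9, 4.54 and 14.8 CPM in the combination tumors, against 93.8, 101, 107, 100 and 69.8 CPM in the diet tumors, and fell by 2.73 (SE 0.38). That the groups do not overlap was a condition for naming these genes. P5828 was the lowest diet tumor each time, closest to the combination tumors for Nptx2. Ppp1r14a, an inhibitor of myosin phosphatase, and Igfbpl1 fell by 3.25 (SE 0.45) and 2.67 (SE 0.40), and without P5828 by 2.78 and 2.31.

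Several of the 12 largest falls took their size from P5828. Amer1, a Wnt pathway inhibitor on the X chromosome, had 0.99, 0.931, 0.973, 0.632 and 0.847 CPM in the combination tumors, against 2.57, 1.56, 1.97, 4.31 and 74.1 CPM in the diet tumors. It fell by 4.22 on the log2 scale with P5828 and by 1.58 without it, and its call was lost without PD5732 (edgeR adjusted p = 0.0514) or PD5805 (0.0588). Pnldc1, Igflr1 and Eya4 fell by 2.93, 2.88 and 2.81, and without P5828 by 1.13, 1.68 and 1.52. The dopamine receptor Drd4 fell by 3.26, or 2.33 without P5828, and the meiotic cohesin subunit Stag3 by 2.78, or 1.91. The kinase gene Dyrk2 fell by 2.97 (SE 0.50), with 2.41 to 4.36 CPM in the combination tumors and 7.91 to 49.9 CPM in the diet tumors.

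Ribosome biogenesis factors process ribosomal RNA in the nucleolus and are well known MYC targets. They had 0 rises and 25 falls among 56 tested members, with a median of -0.74 (all genes: 8.79% fell). Their summed CPM overlapped between the groups, at 8947 to 11990 in the combination tumors and 10046 to 29849 in the diet tumors. Ddx21, a nucleolar helicase, had 49.8, 48, 50.1, 44.8 and 55 CPM in the combination tumors, against 84.7, 71.3, 86.7, 77.9 and 95.1 CPM in the diet tumors. Both groups were tight after TMM scaling, which raised the value of P5828. Ddx21 fell by 0.75 (SE 0.16, edgeR adjusted p = 0.00917). Pes1, of the complex that matures the large subunit and whose promoter is shown above, had 84, 87.5, 78.4, 82.8 and 96 CPM in the combination tumors, against 142, 110, 214, 185 and 196 CPM in the diet tumors, and fell by 0.98 (SE 0.21). Neither Ddx21 nor Pes1 was called on RPKM with limma (adjusted p = 0.38 and 0.168). Rrp12 fell by 1.26 (SE 0.26) and Rrp1b by 1.90 (SE 0.36, or 1.44 on the log2 scale without P5828). The nucleolar proteins Fbl, Nop56 and Ncl were not called (-0.77 ± 0.29, -1.13 ± 0.47 and -0.74 ± 0.38), and Npm1 changed by -0.00 ± 0.24.

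The size of this fall depended on P5828, whose removal moved the list median to -0.47 while 30 members fell and 0 rose (all genes: 14.7% fell). Without PD5732 the list had 9 falls, without all of PD5732, PD5736 and P5828 it had 19, and on RPKM with limma it had 8, with 0 rises each time. Over all genes there were 463, 915 and 269 falls in the same fits, against 1183 with all 10 libraries in edgeR. Cytosolic ribosomal protein genes, measured in all 79 members, had 0 rises and 0 falls in edgeR (8 at an unadjusted p under 0.05, 1 called by DESeq2, 0 by limma). Their median was -0.59 with P5828 and 0.06 without it, and ribosomal proteins took 28.1% ± 3.61 of counts in the combination tumors and 29.9% ± 7.94 in the diet tumors (SD, n = 5 each; exact permutation test, two-sided, p = 0.746). Rplp2, of the ribosomal stalk, had 1725 to 3839 CPM in the combination tumors and 2133 to 5161 CPM in the diet tumors other than P5828, which had 38899 CPM.

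Mitotic genes also fell. Of 39 tested members 0 rose and 18 fell, with a median of -0.73 (all genes: 8.79% fell). Birc5, survivin, had 76.4, 102, 83.3, 59.6 and 125 CPM in the combination tumors, against 232, 155, 183, 206 and 296 CPM in the diet tumors, and fell by 1.26 (SE 0.25, edgeR adjusted p = 0.00559). Cdc20, which activates the anaphase-promoting complex, fell by 1.33 (SE 0.29), the centromere histone Cenpa by 0.97 (SE 0.22), the kinase Plk1 by 0.89 (SE 0.22), and Mki67 by 1.98 (SE 0.54). Of 42 DNA replication genes 0 rose and 18 fell, with a median of -0.67, among them the polymerase alpha subunit Pola2 (-0.98 ± 0.21), the histone chaperone subunit Chaf1a (-1.32 ± 0.29) and the helicase subunit Mcm6 (-0.96 ± 0.23). Without P5828 the medians were -0.72 and -0.61. Without PD5732, 8 members of each list fell and 0 rose, where 463 of 13604 genes fell. On RPKM with limma 5 of each fell and 0 rose, where 269 of 13461 genes fell. Cenpa, Pola2 and Chaf1a lost their call in that limma fit (adjusted p = 0.229, 0.216 and 0.0509). The cyclin-dependent kinase inhibitor Cdkn2c had 18 to 25 CPM in the combination tumors, against 7.31 to 9.9 CPM in the diet tumors, and rose by 1.29 ± 0.19 (edgeR adjusted p = 0.00133). Cdkn1a, p21, rose by 1.93 ± 0.60, and of 20 tested cell cycle inhibitors and p53 targets 4 rose and 1 fell (all genes: 10.6% and 8.79%).

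Among 25 tested genes of the Mycn network and neuroblastoma identity, 0 rose and 6 fell (all genes: 10.6% and 8.79%). The mouse Mycn gene itself had 72.6, 61.9, 71.4, 67.5 and 64.5 CPM in the combination tumors, against 68.4, 71.9, 100, 81.4 and 35.7 CPM in the diet tumors, with overlapping groups (-0.08 ± 0.24, edgeR adjusted p = 0.841). Whether reads of the human transgene were counted here was not tested. The oncogene Lmo1 fell by 1.46 (SE 0.29). The transcription factors Sox11, Hand1, Insm1 and Tfap2b fell by 1.64, 2.31, 1.21 and 0.90. Sox11 and Hand1 each lost the call without PD5732 (edgeR adjusted p = 0.0522 and 0.0678), and the list then had 1 fall, where 463 of 13604 genes fell. Lin28b, an inhibitor of let-7, was at 0.46 to 0.903 CPM in the combination tumors and 0.577 to 2.33 CPM in the diet tumors and was not called.

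Among polyamine genes, Odc1, Oaz1, Paox and Mri1 fell. They were 4 of 23 tested members, 0 rose, and the median was 0.08 (all genes: 8.79% fell). Without P5828, 7 fell and 0 rose (all genes: 14.7% fell). Odc1, the DFMO target, had 178, 256, 283, 159 and 216 CPM in the combination tumors, against 443, 455, 420, 441 and 436 CPM in the diet tumors. After TMM scaling the diet tumors were almost equal, but scaling raised the value of P5828, as described above. Odc1 fell by 1.01 on the log2 scale (SE 0.21, edgeR adjusted p = 0.00668) and was not called on RPKM with limma (adjusted p = 0.205). Oaz1, antizyme 1, which targets ornithine decarboxylase for degradation, had 668, 540, 462, 533 and 785 CPM in the combination tumors, against 1261, 913, 964, 1179 and 2394 CPM in the diet tumors. It fell by 1.17 (SE 0.30, edgeR adjusted p = 0.0208), and the call was lost without PD5736 (0.056) or PD5805 (0.0634).

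The other members that fell were Paox, which oxidises acetylated polyamines (-1.38 ± 0.39, or -0.80 without P5828), and Mri1 of the methionine salvage pathway (-0.95 ± 0.30), and both lost the call when single mice were left out (without PD5732 adjusted p = 0.0683 and 0.0837 in edgeR). Amd1, S-adenosylmethionine decarboxylase, had 34.2, 46.4, 52.9, 44.6 and 28.2 CPM in the combination tumors, against 29.9, 42.5, 31.4, 27.4 and 16 CPM in the diet tumors. Its groups overlapped and it was not called (0.48 ± 0.26, edgeR adjusted p = 0.213), and its reads can be shared with its near copy Amd2 (0.40 ± 0.27). The antizyme inhibitors Azin1 (0.90 ± 0.35) and Azin2 (-0.89 ± 0.31), the antizyme Oaz2 (0.38 ± 0.23) and the acetyltransferase Sat1 (0.32 ± 0.19) were not called. Spermidine synthase, Srm (-0.25 ± 0.30), spermine synthase, Sms (0.08 ± 0.26), and spermine oxidase, Smox (-0.23 ± 0.21), were not called either. Neither were Eif5a (0.08 ± 0.29) and the hypusine enzymes Dhps (-0.87 ± 0.34) and Dohh (-0.62 ± 0.21).

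Footprints of the same tumors, which count ribosomes on coding sequence, gave another order in this pathway. Odc1 footprints were at 682, 752, 681, 520 and 568 CPM in the combination tumors, against 504, 617, 643, 630 and 620 CPM in the diet tumors, a change of 0.09 ± 0.11 (edgeR adjusted p = 0.592). Amd1 footprints were at 134, 218, 210, 174 and 130 CPM in the combination tumors, against 41.4, 43.7, 31.3, 25.7 and 31.8 CPM in the diet tumors, a rise of 2.33 ± 0.18 (edgeR adjusted p = 9.75e-06). So Odc1 fell in RNA and was not called in footprints, and Amd1 was not called in RNA and rose in footprints. Azin1 footprints rose by 1.48 ± 0.17 and Sat1 footprints by 0.86 ± 0.18, and those of Oaz1 changed by -0.07 ± 0.14. The difference between the readouts was not tested, and PD5732 has RNA that does not match its footprints.

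For the genes of nerve function and growth both readouts are given side by side. Th rose by 1.81 ± 0.28 in RNA and 1.45 ± 0.14 in footprints, Scg2 by 3.90 ± 0.53 and 3.00 ± 0.35, and Fos by 3.37 ± 0.37 and 1.97 ± 0.25. Ddx21 changed by -0.75 ± 0.16 in RNA and -0.97 ± 0.14 in footprints, and Fzd2 by -3.87 ± 0.44 and -2.28 ± 0.40. Dyrk2 and Cacna2d1 fell in RNA and were not called in footprints (-0.15 ± 0.17 and 0.16 ± 0.11). In footprints 11768 genes were tested, of which 15.3% were called up and 13.9% down (29.3% in all).

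**Figure D4:**
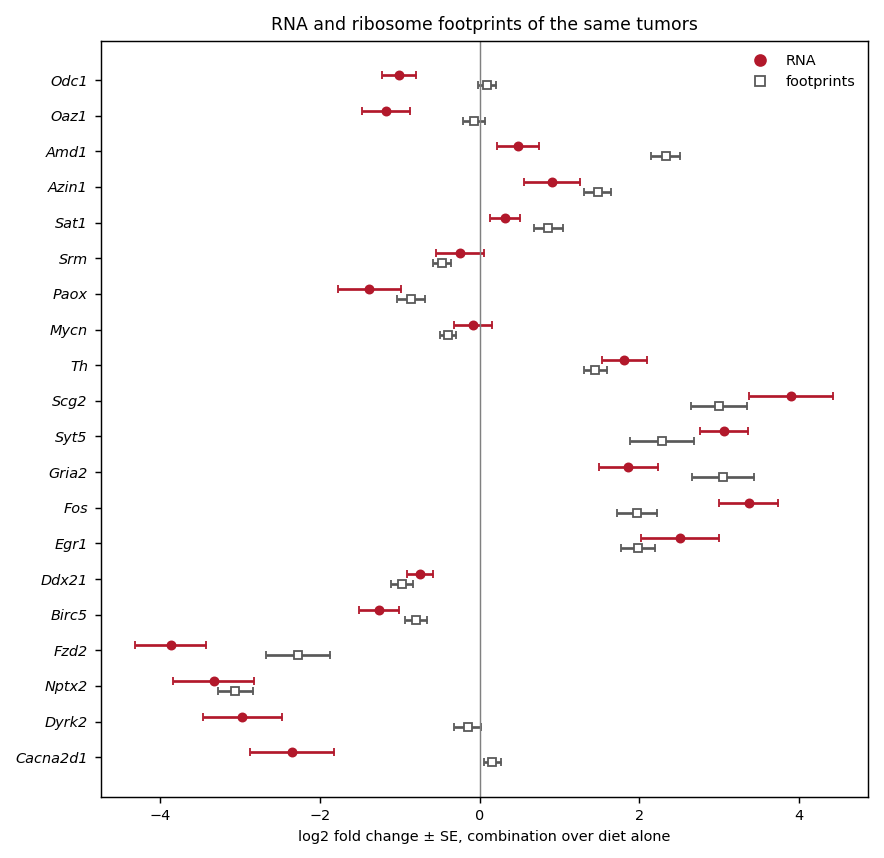
Log2 fold change ± SE, combination over diet alone, in RNA (filled circles) and in ribosome footprints (open squares) of the same 10 tumors for 20 genes. Odc1 lies at -1.01 in RNA and 0.09 in footprints, Amd1 at 0.48 and 2.33, and for Th, Scg2, Fos, Fzd2 and Nptx2 both readouts lie on the same side of 0.

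Among 25 tested genes of proline and arginine metabolism 5 rose and 2 fell (all genes: 10.6% and 8.79%). Asl, argininosuccinate lyase, had 320, 194, 134, 330 and 221 CPM in the combination tumors, against 70.2, 42.9, 72.5, 81.5 and 77.8 CPM in the diet tumors, and rose by 1.80 ± 0.28 (edgeR adjusted p = 0.00164). Ass1, the enzyme before it in the synthesis of arginine from citrulline, rose by 1.35 ± 0.30, with 6.6 to 13.4 CPM in the combination tumors and 2.04 to 5.55 CPM in the diet tumors. Oat, ornithine aminotransferase, rose by 0.96 ± 0.26 and glutamine synthetase, Glul, fell by 0.70 (SE 0.19), and both lost the call without PD5732 (edgeR adjusted p = 0.0687 and 0.0706). The proline synthesis genes Aldh18a1 and Pycr1 (0.14 ± 0.25 and -0.02 ± 0.40), the arginase Arg2 (-0.30 ± 0.61) and the arginine transporter Slc7a1 (0.52 ± 0.47) were not called.

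Targets of ATF4, the factor that responds to missing amino acids, went both ways, 9 of 41 up and 2 down, with a median of 0.34 (all genes: 10.6% rose, 8.79% fell, median -0.00). The stress hormone Fgf21 rose by 4.61 ± 0.78, with 0.649 to 3.88 CPM in the combination tumors and 0 to 0.186 CPM in the diet tumors. Atf3 rose by 1.71 ± 0.36 and the glutathione-degrading Chac1 by 1.64 ± 0.37, while the glutamine transporter Slc1a5 fell by 1.30 (SE 0.23). Asns, Ddit3 and Psat1, also targets, were not called (0.36 ± 0.23, 0.34 ± 0.45 and 0.11 ± 0.32). Without PD5732 the list had 3 rises and 2 falls, where 804 of 13604 genes rose and 463 fell. In the unfolded protein response 4 of 21 rose and 3 fell (all genes: 10.6% and 8.79%). The chaperone Dnajb9 rose by 1.82 ± 0.37, the stress-induced Edem1 fell by 1.08 (SE 0.28), and the chaperone Hspa5 was not called (0.57 ± 0.24). Edem1 lost its call without PD5732 (edgeR adjusted p = 0.0526).

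Of 72 oxidative phosphorylation genes 5 rose and 0 fell, with a median of 0.08, where 10.6% of all genes rose. Without P5828, 17 rose and 0 fell, where 16.3% of all genes rose, and without PD5732 the count was 1 and 0. The complex III subunit Uqcrc2 rose by 0.85 ± 0.20. Of 29 genes of glycolysis and hypoxia 7 rose and 2 fell (all genes: 10.6% and 8.79%). Those that rose were led by the neuronal isoenzymes Aldoc (2.23 ± 0.40) and Eno2 (2.90 ± 0.62), and the muscle isoenzyme Pfkm fell by 1.03 (SE 0.26). Without PD5732 the list had 2 rises and 1 fall, where 804 of 13604 genes rose and 463 fell. Translation factors gave 2 rises and 2 falls of 45 (all genes: 10.6% and 8.79%). The neuronal and muscle elongation factor Eef1a2 (1.10 ± 0.26) and the helicase Eif4a2 (1.24 ± 0.24) were up. The ribosome assembly factor Eif6 was down (-0.83 ± 0.20). The initiation factor Eif5b fell by 2.08 (SE 0.59), or 0.93 without P5828, and lost its call without PD5732 (edgeR adjusted p = 0.0688). Cholesterol synthesis gave 1 rise and 1 fall of 23, aminoacyl-tRNA synthetases 1 and 1 of 22, and eIF5A hypusination 0 and 0 of 3 in edgeR (2 at an unadjusted p under 0.05, 1 called by DESeq2, 0 by limma). The interferon response gave 1 rise of 28, the chemokine Cxcl9 (4.18 ± 1.02), which stood at 11.6 CPM in PD5746 and 0.459 CPM in the lowest combination tumor.

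**Figure D5:**
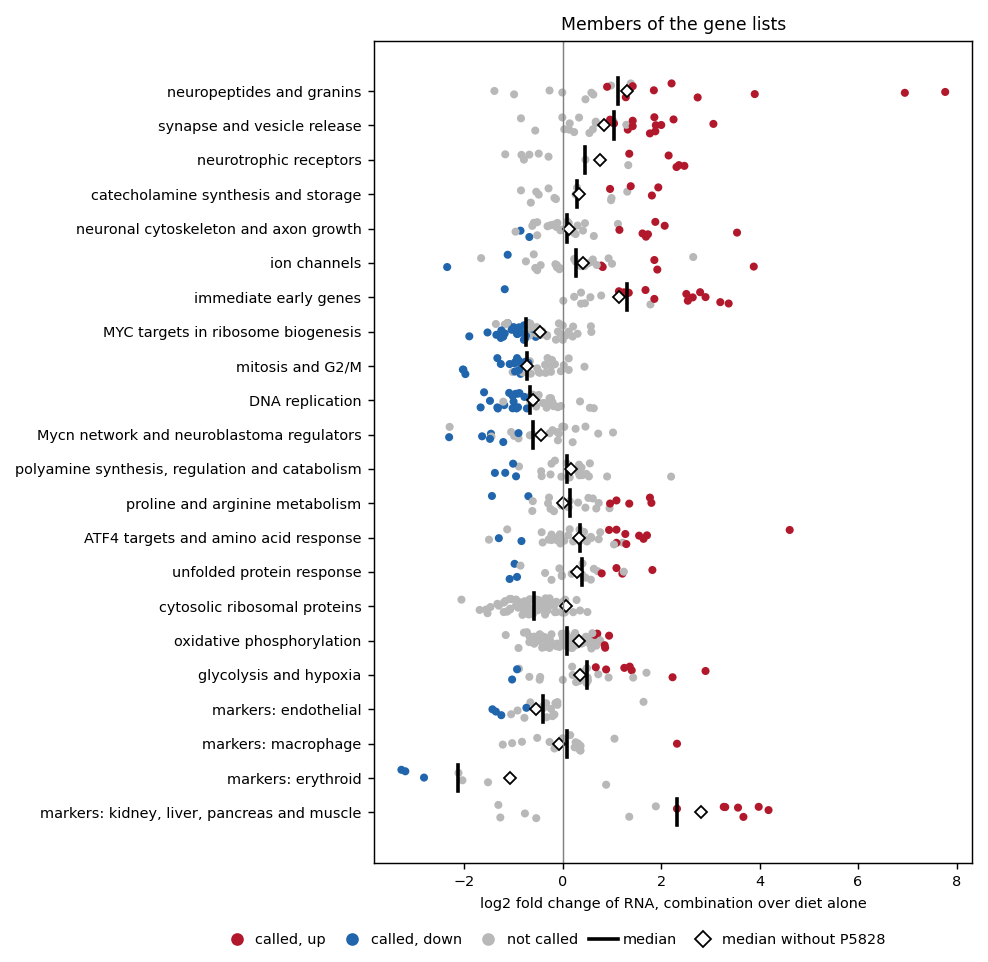
Log2 fold changes of the tested members of 22 gene lists, each point 1 gene, coloured where called, with the list median (bar) and the median without P5828 (diamond). The lists of neuropeptides, vesicle release and immediate early genes have no or 1 called member below 0, the lists of ribosome biogenesis, mitosis and DNA replication have none above 0, and the bar and diamond are farthest apart for erythroid markers.

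These are bulk tumors, so fewer cells of a type and less RNA per cell cannot be told apart. The marker counts stand beside 10.6% of all genes that rose and 8.79% that fell. Neuroblast and sympathetic neuron markers were present in both groups, with Th and Chga above 200 CPM in every tumor, and 3 of 17 rose (Prph, Th and Elavl4) and 3 fell, Elavl3 and Insm1 among them. Their summed CPM was 3268 to 4393 in the combination tumors and 2728 to 4124 in the diet tumors. Endothelial markers had 0 rises and 4 falls of 19, with a median of -0.40 and a summed CPM of at most 197 in the combination tumors and 170 to 317 in the diet tumors. The receptors Tie1 and Flt1 fell by 1.25 (SE 0.26) and 1.43 (SE 0.33), but were not called on RPKM with limma (adjusted p = 0.211 and 0.138). In that limma fit the list had 0 falls and a median of -0.07, where the median of all genes was 0.37. Cldn5 and Esam lost their call without PD5732 (edgeR adjusted p = 0.0943 and 0.0964).

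Schwann cell and glia markers gave 2 rises of 9 tested, Postn (1.86 ± 0.36), also a fibroblast gene, and Erbb3 (all genes: 10.6% rose, 8.79% fell). The summed CPM of the list was 125 to 156 in the combination tumors and 26.7 to 68.2 in the diet tumors. Postn alone had 70.4 to 122 CPM in the combination tumors and 8.3 to 45.3 CPM in the diet tumors, so this sum does not describe glia. The defining gene Sox10 stood at 0.575 CPM or less in every tumor. Of 24 fibroblast and pericyte markers 2 rose and 1 fell. Of 20 macrophage markers 1 rose, the receptor Cx3cr1, at 0.388 to 0.791 CPM in the combination tumors and 0 to 0.331 CPM in the diet tumors. B and plasma cell markers (8 tested) gave 0 calls in edgeR, with 2 at an unadjusted p under 0.05, 1 called by DESeq2 and 0 by limma. T and NK cell markers and adrenal cortex markers (9 tested each) gave 0 by each of these. Of 4 neutrophil markers 1 rose, the peroxidase gene Mpo (3.78 ± 0.78). It stood at only 0.284 to 2.24 CPM in the combination tumors and 0 to 0.269 CPM in the diet tumors. S100a9 (-1.14 ± 0.72), S100a8 (-0.68 ± 0.65) and Csf3r (0.00 ± 0.35) were not called. The part of these cell types in the results above was not tested.

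Erythroid markers fell in 3 of 7 tested members (all genes: 8.79%) and were highest in P5828. The alpha globin Hba-a1 had 2010, 3424, 8607, 733 and 3881 CPM in the combination tumors, against 9241, 5619, 13849, 16726 and 125461 CPM in the diet tumors, a fall of 3.20 (SE 0.93) that was 1.62 on the log2 scale without P5828 and lost its call without PD5732 (edgeR adjusted p = 0.0822). Hba-a2 is a near copy and shares its reads. Of 13 markers of kidney, liver, pancreas and muscle, 7 rose and 0 fell (all genes: 10.6% rose). Of these 7, 6 were genes of digestive enzymes of the exocrine pancreas. The lipase Pnlip had 28.5, 18.2, 6.22, 3.05 and 73.7 CPM in the combination tumors, against 3.01, 1.35, 0.664, 1.77 and 1.31 CPM in the diet tumors. It rose by 3.98 ± 0.78 and its footprints by 5.63 ± 1.05. PD5825 was highest and PD5805 lowest, whereas PD5805 was the highest for Tac1 and Scg2. Without PD5732, PD5736 and P5828 the list had 1 rise, where 1160 of 13689 genes rose.

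Levels in the other 2 groups of the study are given as deposited RPKM, which is per length, as a description only. Tac1 had a median of 206 RPKM with the combination, 0.505 with the diet alone, 63 with DFMO on the control diet and 0 on the control diet. Vip had medians of 25.6, 0.14, 147 and 0 in the same groups, and Fos had 37.8, 3.14, 11.6 and 0.754. Th had 856, 217, 428 and 108, and Odc1 had 147, 318, 220 and 94.7. So the medians of Vip were highest with DFMO alone, and those of Tac1, Fos and Th with the combination. Fzd2 had 1.01, 14.4, 4.01 and 4.69, with the diet alone above the other 3 groups. Of the control RNA libraries 3 had under 14000 transcripts detected, so these control medians rest mostly on such libraries.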

How the data were processed

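RNA and ribosome footprints come from the same tumor extracts, per the labels' protocols. The authors deposited read counts per transcript, 1 transcript per gene, and RPKM values, per the file headers. The submitters' processing notes name cutadapt, Bowtie2, HISAT2 and GRCm38, with versions not given in the sources used here, and lengths behind the deposited RPKM are coding lengths. Counts were tested with edgeR 4.0.16 (robust quasi-likelihood F test, TMM scaling, filterByExpr, R 4.3.3) in the 10 RNA libraries alone, with Benjamini-Hochberg adjustment over all 13461 genes. Footprints were fitted likewise. Standard errors are the change over the square root of F. On simulated data with 13341 genes in the fit, 25% of 100 genes changed 2-fold and 85% of 100 changed 4-fold were recovered, with 4 false among 114 calls. The simulated libraries were independent draws from 1 mean profile, with none like P5828 or PD5732. These shares therefore do not carry over to the calls in the tumors.

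RPKM was tested with limma 3.58.1 on log2(RPKM + 0.1), and counts also with DESeq2 1.42.0. Other alternatives were RLE scaling, no filter, all groups in one fit, sex from Y-linked genes as covariate, and leaving out each mouse, or P5828 with PD5732. Leaving out PD5736 as well was chosen after seeing the data. The sex covariate split libraries at 20 CPM of Y-linked genes, so PD5732 fell on different sides in RNA and in footprints. Library measures were compared by an exact permutation test, and figures drawn with matplotlib 3.10.9.

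Members and lists were chosen with earlier results of these data known. Named genes are the 12 largest rises and falls (called, at least 10 CPM in a group, groups apart), fixed polyamine, proline and arginine genes, and from each list at most 4 called members, by p. Further list members are named as examples. They were part of the fits with each mouse left out, but their single results there are not given. Each RNA library has its own mouse number in the labels. Promoters are RefSeq sequences, 15830 of which were matched, and 11312 lie within 50 bases of the start of the counted transcript. Results for a few genes are not reported here.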

Additional observations from a re-analysis of the deposited data

Results flagged for a closer look

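Values flagged here are those of 1 tumor that stood far from the other 4 of its group, by Dixon's test at 95%, which chance flags in about 1 in 20 groups. The values are TMM-scaled RNA CPM, and most of them belong to the diet tumor P5828, whose values this scaling raises. That library had 12969 transcripts detected, itself the lowest of its group.

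P5828 was high for Amer1 (74.1), Drd4 (50.8), Ppp1r14a (129), Pnldc1 (192), Igflr1 (36.8), Eya4 (58.8), Stag3 (120) and Igfbpl1 (86.4), all among the largest falls. It was also high for the polyamine and hypusine genes Paox (56.7), Dhps (394) and Oaz1 (2394), and low for Srm (163), Aldh18a1 (25.5), Eif5a (328) and Oaz2 (28.8). Among translation and stress genes it was high for Rrp1b (281), Rplp2 (38899), Rpl41 (8651), Eif5b (897), Vars (1169) and Edem1 (36.4). Among cell cycle genes it was high for Cdc20 (780), Cenpe (427), Chaf1a (195) and Orc1 (27.1). It was high for Sox11 (16.2), Gria2 (7.43), Cacna2d1 (138) and Nova2 (10.6), and for the erythroid genes Hba-a1 (125461), Hba-a2 (131189) and Alas2 (1913).

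Among combination tumors, PD5746 was flagged for Eya4 (4.1), Cxcl9 (11.6) and the adrenal steroid gene Hsd3b1 (3.1), PD5736 for Igfbpl1 (13.5), PD5825 for Rpl41 (2602) and PD5805 for Dnajb9 (11.5). Among the other diet tumors, P5784 was flagged for Tac1 (1.23), Scgn (1.92) and Aldoc (3.53), P5785 for Kcnma1 (1.5), and P5705 for Kcnq3 (0.213), Nr4a1 (31.2), Cx3cr1 (0.331) and the T cell gene Cd5 (0.496).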

How the results depend on the processing

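The count of 2607 RNA calls was 2616 with RLE scaling, 2708 with no filter, 2528 with all groups in one fit, 1815 with sex as a covariate and 3903 with DESeq2. It was 1245 with limma on RPKM and 5424 in the fit of all groups without low-complexity libraries. Leaving out 1 mouse at a time gave 1252 (without PD5805) to 4260 (without P5828) calls, with 1267 without PD5732 and 1652 without PD5736. Footprints gave 3445 calls, and 2613 to 4478 with 1 mouse left out. The combination tumors had 1264 more transcripts detected on average, or 797 to 1466 with 1 mouse left out. The share of counts in ribosomal protein genes differed by -1.74 percentage points, or -3.63 to 1.57 with 1 mouse left out, the sign turning without P5828 (exact permutation test, two-sided, p = 0.524). Of the 123 named genes that were called, 44 lost their call with limma on RPKM, 31 without PD5732, 32 without PD5805 and 1 without P5828. The causes were not tested. Counting depth was 17.4 to 38.6 M per RNA library. No paired analysis was possible because the mouse numbers are unique and the groups share none.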
